A study of Mus musculus with 6 samples.

Results

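Spo11 and Dnah8 are genes of germ cells and of moving cilia and flagella, and both were higher in the epidermis of K14ΔNLef1 mice than in wild type epidermis. They were taken as every probe set of the deposited table whose platform annotation names 1 gene and that gene is Spo11 or Dnah8 (listed there under its older symbol Dnahc8). This gave 13 probe sets for Spo11 and 99 for Dnah8, 2 genes of the 11281 measured. They were selected on the log2 intensities of these arrays, by their difference between the genotypes and their rise over the level of dim probe sets, so those values are given below as a description, with no test. Expression was measured in unfractionated keratinocytes from the back-skin epidermis of female mice aged 9.5 weeks, on a mixed C57BL6/CBA background. The 3 K14ΔNLef1 samples come from mice whose transgene encodes Lef1, a transcription factor of the Wnt pathway, lacking the N-terminus, and is driven in basal epidermal cells by the promoter of keratin 14. The other 3 samples are labelled wild type. The protocol mentions cell sorting before RNA extraction, while the samples are labelled unfractionated. There was 1 exon array per sample, whose probe sets each read a short stretch of a gene, and the labels call the samples biological replicates without saying whether animals were pooled.

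Spo11 cuts both strands of DNA at the start of meiosis, together with partner proteins that place and regulate the breaks, and the broken ends are then repaired by recombination between chromosomes. It is known as a gene of spermatocytes and oocytes. Dnah8 is a heavy chain of axonemal dynein, the motor that slides the microtubules of cilia and sperm tails past each other, and is best known from the sperm tail. A working axoneme also needs other heavy chains, intermediate and light chains, docking factors and assembly factors. Keratinocytes are not known to enter meiosis or to build motile cilia.

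Values are log2 intensities, a gene value is the mean log2 intensity of the gene's probe sets on an array, and differences are K14ΔNLef1 minus wild type. The number of arrays limits the precision. Median intensity over all probe sets was 154.2 on K14ΔNLef1 replicate 1 and 190.0 to 203.2 on the other 5 arrays. Lef1, the gene of the transgene, averaged 11.16 ± 0.07 in K14ΔNLef1 and 6.36 ± 0.61 in wild type (SD, n = 3 each). All 16 keratinocyte markers, among them Krt14 and Krt5 of the basal layer, lay above the 95th percentile of the dim genes on all arrays. Dim genes here are 285 genes known from other organs, such as odorant receptors and genes of retina, liver and pancreas, with 704 probe sets. On the 6 arrays the 95th percentile of their probe sets lay at 8.07 to 8.49 and their median at 5.69 to 5.95. Probes differ in brightness, so this level is a rough guide for any single probe set.

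Spo11 was higher on every K14ΔNLef1 array than on any wild type array. Its gene value was 6.18, 6.99 and 7.03 on K14ΔNLef1 replicates 1, 2 and 3, against 4.34, 4.48 and 4.68 on the wild type arrays. The genotypes did not overlap, and the lowest K14ΔNLef1 array, replicate 1, lay 1.50 above the highest wild type array. The means were 6.74 ± 0.48 in K14ΔNLef1 and 4.50 ± 0.17 in wild type (SD, n = 3 each), a difference of 2.24. The SE of this difference, 0.26, is that of the limma fit, whose variance is moderated over all genes. The K14ΔNLef1 arrays spread more than the wild type arrays. The gene value was under the 95th percentile of the dim genes' values on all 6 arrays (7.43, 7.11 and 7.22 on K14ΔNLef1 replicates 1, 2 and 3, against 7.33, 7.32 and 7.21 on the wild type arrays), so no fold is given. Of the 285 dim genes, 96, 18 and 20 were at or above Spo11 on the K14ΔNLef1 arrays, against 227, 211 and 187 on the wild type arrays.

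The Spo11 probe sets did not all move. The mean was higher in K14ΔNLef1 in 12 of the 13, where 42.5% of all probe sets of the table were higher. In 9 of the 13 every K14ΔNLef1 array lay above every wild type array, as in 5.11% of all probe sets. In 7 of the 13 the gap between the nearest arrays was at least 1, as in 0.314% of all. These counts come from the contrast that chose the gene and describe it only. The differences ran from -0.36 to 4.96, with a median of 2.42.

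Probe set 4725412 had the largest difference, 4.96, of the 5 that differed by 3 or more, and the least spread among their K14ΔNLef1 arrays (SD 0.19). It read 8.99, 8.66 and 8.66 on K14ΔNLef1 replicates 1, 2 and 3, against 4.12, 3.78 and 3.55 on the wild type arrays. Its K14ΔNLef1 values lay within a narrow range, with replicate 1 the highest. Probe set 4339965 read 7.60, 7.66 and 8.53 on the K14ΔNLef1 arrays, against 2.92, 3.83 and 4.69 on the wild type arrays. Probe set 4489453 read 6.83, 7.47 and 8.27 on the K14ΔNLef1 arrays, against 3.83, 3.97 and 4.06 on the wild type arrays. In both, replicate 3 was the highest of the K14ΔNLef1 arrays and the genotypes stood well apart. Probe set 5595642 read 5.44, 7.16 and 7.52 on the K14ΔNLef1 arrays, against 3.17, 3.02 and 3.66 on the wild type arrays. The fifth, 4833935, read 4.17, 6.15 and 5.64 on the K14ΔNLef1 arrays, against 1.74, 1.61 and 2.37 on the wild type arrays. In these 2 the lowest K14ΔNLef1 value was again that of replicate 1.

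At the other end, 3 probe sets hardly differed between the genotypes. Probe set 4856941 read 6.83, 7.50 and 7.52 on the K14ΔNLef1 arrays, against 7.00, 7.12 and 6.43 on the wild type arrays. Probe set 4776118 read 6.34, 6.58 and 7.29 on the K14ΔNLef1 arrays, against 6.73, 6.27 and 6.90 on the wild type arrays. Probe set 5022719 read 6.78, 6.84 and 7.01 on the K14ΔNLef1 arrays, against 7.11, 7.25 and 7.36 on the wild type arrays, and here every wild type array was the higher. On each wild type array these 3 were the only Spo11 probe sets above the median of the dim probe sets. On the K14ΔNLef1 arrays 8, 12 and 10 of the 13 lay above that median. Across the 13 probe sets a higher wild type level went with a smaller difference (Pearson r = -0.74, a description over probe sets that share a gene and the same arrays). The positions of the probe sets were not used here.

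A probe set was counted as clearly higher when its value was above the 95th percentile of the dim probe sets on all 3 K14ΔNLef1 arrays and its lowest K14ΔNLef1 value was at least 1 above its highest wild type value. One Spo11 probe set, 4725412, met this, where 0.123% of all probe sets did. It was 0.51 or more above the dim level, and the nearest outside, 4339965, was 0.88 below it on its dimmest K14ΔNLef1 array (a margin of -0.88). No Spo11 probe set was above the dim level on any wild type array. With the 99th percentile in place of the 95th, 0 Spo11 probe sets met the rule, and with the median of all probe sets of the array, 2 did.

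**Figure D1:**
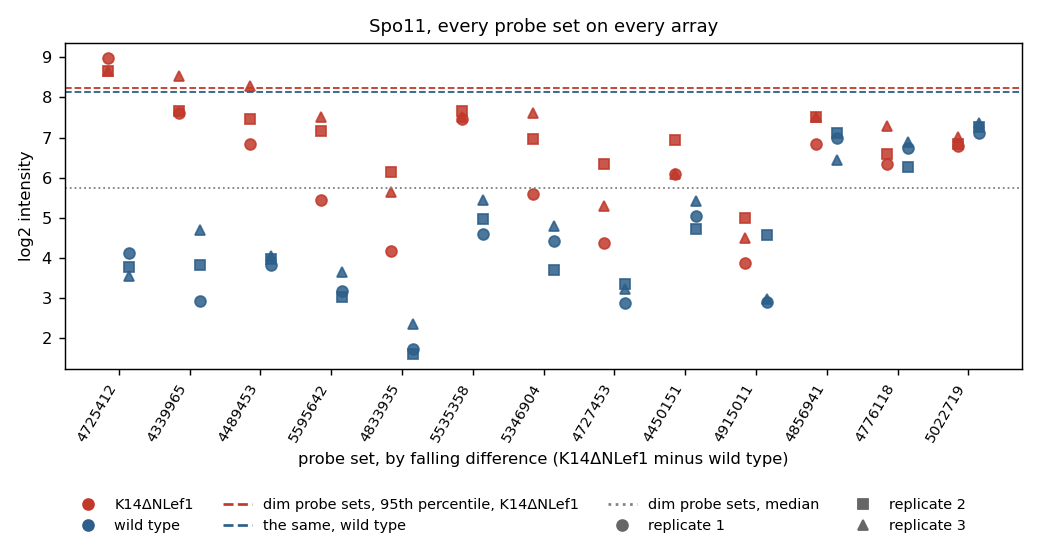
Log2 intensity of each of the 13 Spo11 probe sets on the 3 K14ΔNLef1 arrays (red) and the 3 wild type arrays (blue), ordered by falling difference; dashed lines are the 95th percentile of dim probe sets, averaged over the arrays of a genotype, and the dotted line is their median averaged over all arrays. The leftmost, 4725412, stands above the dashed lines on all 3 K14ΔNLef1 arrays, and the 3 on the right differ by 0.43 or less.

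Dnah8 was also higher on every K14ΔNLef1 array than on any wild type array. Its gene value was 7.96, 7.84 and 8.82 on K14ΔNLef1 replicates 1, 2 and 3, against 6.29, 5.91 and 5.84 on the wild type arrays. Replicate 3 was the highest of the K14ΔNLef1 arrays, and the nearest arrays of the genotypes were 1.56 apart. The means were 8.21 ± 0.53 in K14ΔNLef1 and 6.01 ± 0.24 in wild type (SD, n = 3 each), a difference of 2.20. The SE of this difference in the limma fit, moderated as for Spo11, was 0.28. The gene value was above the 95th percentile of the dim genes on all 3 K14ΔNLef1 arrays and under it on all 3 wild type arrays. With each wild type array set to that percentile, Dnah8 was at least 1.89-fold higher in K14ΔNLef1. Of the 285 dim genes, 7, 3 and 0 were at or above Dnah8 on the K14ΔNLef1 arrays, against 63, 108 and 100 on the wild type arrays. Dnah8 had more probe sets than any other gene of the table.

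No Dnah8 probe set had a lower mean in K14ΔNLef1. The mean was higher in K14ΔNLef1 in 99 of 99, where 42.5% of all probe sets of the table were higher. In 85 of 99 every K14ΔNLef1 array lay above every wild type array, as in 5.11% of all probe sets. The gap between the nearest arrays was at least 1 in 51, as in 0.314% of all. As for Spo11, these counts come from the contrast that chose the gene and describe it only. Differences ran from 0.19 to 3.75, with a median of 2.28 and quartiles of 1.66 and 2.74, and 92 of the 99 differed by 1 or more. K14ΔNLef1 replicate 3 gave the highest value of the 6 arrays in 80 of the 99. The lowest value was on K14ΔNLef1 replicate 1 in 2 of the 99 and on a wild type array in the rest. Across the 99 probe sets the wild type level and the difference had a Pearson r of -0.27, a description as for Spo11.

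Of the 99 probe sets, 18 met the rule for clearly higher, where 0.123% of all probe sets did. No other gene of the table had as many, but Dnah8 also had the most probe sets, beside a median of 8 per gene. The count rests on the values that chose the gene and describes it only. Probe set 4333615 read 10.73, 11.00 and 11.33 on the K14ΔNLef1 arrays, against 8.34, 8.32 and 8.30 on the wild type arrays, where the wild type arrays spread by 0.02 (SD). Probe set 4460773 read 10.47, 9.79 and 10.32 on the K14ΔNLef1 arrays, against 7.29, 6.68 and 7.07 on the wild type arrays. Probe set 5395257 read 10.32, 10.34 and 9.75 on the K14ΔNLef1 arrays, against 6.94, 7.15 and 7.23 on the wild type arrays, and here replicate 3 was the lowest of the K14ΔNLef1 arrays.

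The 2 probe sets with the largest differences did not pass the dim level on all K14ΔNLef1 arrays. Probe set 4405795, with a difference of 3.75, read 6.23, 7.04 and 6.23 on the K14ΔNLef1 arrays, against 2.60, 2.18 and 3.48 on the wild type arrays. Probe set 5402993, also with 3.75, read 8.55, 7.34 and 8.93 on the K14ΔNLef1 arrays, against 5.94, 3.09 and 4.54 on the wild type arrays, where it spread widely. At the other end, probe set 4673364 read 5.77, 6.16 and 7.15 on the K14ΔNLef1 arrays, against 6.29, 6.42 and 5.81 on the wild type arrays, and the genotypes overlapped. Just inside the rule for clearly higher, probe set 5309793 was 0.42 above the dim level, and just outside it 4761930 missed that level on 1 array, with a margin of -0.02.

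On single arrays, 34, 38 and 67 Dnah8 probe sets were above the dim level on K14ΔNLef1 replicates 1, 2 and 3, against 6, 7 and 3 on the wild type arrays. In wild type 2 were above it on all 3 arrays, 4333615 and 5268849, and 9 on at least 1. The count of clearly higher probe sets was 18 over all arrays, 30 without K14ΔNLef1 replicate 1 and 29 without replicate 2. It was 9 with the 99th percentile of the dim probe sets and 32 with the median of all probe sets of the array.

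**Figure D2:**
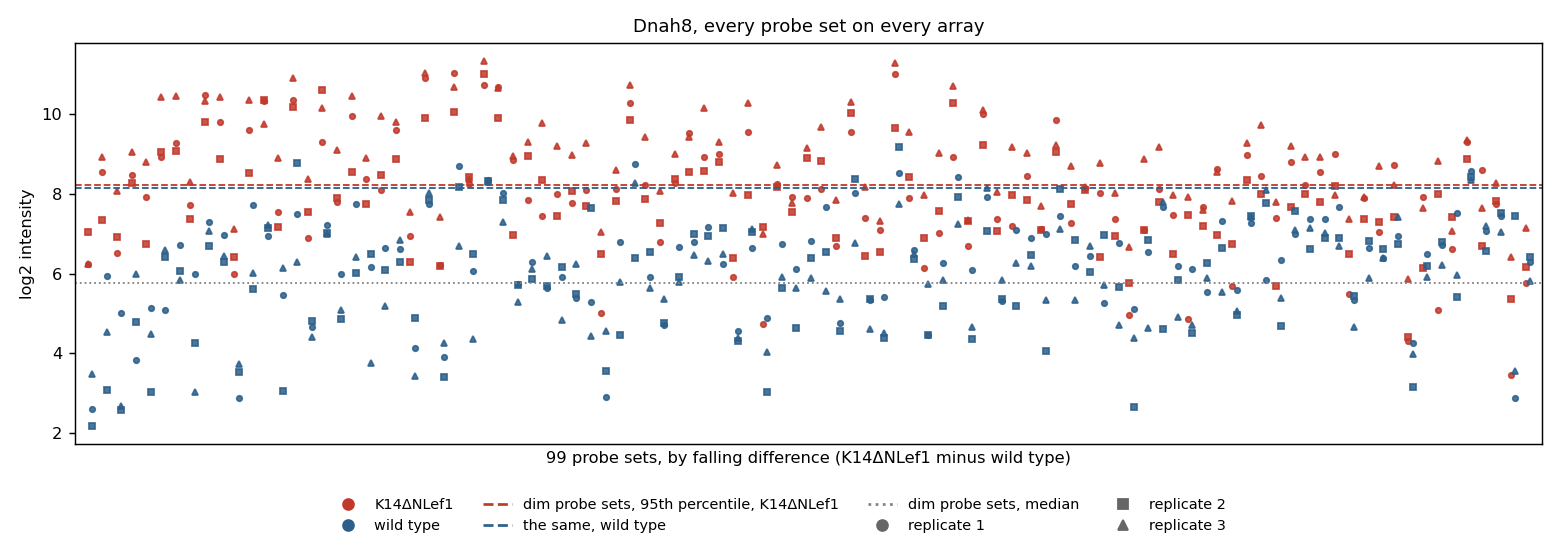
Log2 intensity of each of the 99 Dnah8 probe sets on the 3 K14ΔNLef1 arrays (red) and the 3 wild type arrays (blue), ordered by falling difference, with the 95th percentile (dashed) and the median (dotted) of dim probe sets as in the plot for Spo11. The red points lie above the blue ones in 85 of the 99, and the separation narrows towards the right.

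The region around the Dnah8 start is shown because the transgene encodes a factor that binds DNA, and the sequence can be read beside the expression values. RefSeq gives it on the plus strand of GRCm38.p6 at chr17:30626686-30626937, the first 252 bases of a window of 300 around the start of the gene. Where in the window the start lies is not given here. The capitals mark matches to cores of the sites of Lef1 and Tcf factors, read on either strand.
Dnah8 promoter: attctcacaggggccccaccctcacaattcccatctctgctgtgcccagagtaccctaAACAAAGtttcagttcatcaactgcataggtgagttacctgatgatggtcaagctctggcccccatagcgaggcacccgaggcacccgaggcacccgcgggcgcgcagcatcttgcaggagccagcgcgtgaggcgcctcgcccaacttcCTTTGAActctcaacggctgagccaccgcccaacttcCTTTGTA
The search covered 4 sets of letters on both strands and found 3 matches, which do not overlap each other. Positions are counted from 1 at the 5′ end of the printed run, and shares are of 32851 windows of the same length in the RefSeq table. CTTTGAA starts at base 209 on the printed strand and is in 5.14% of windows. CTTTGTA starts at base 246 on the printed strand and is in 3.63% of windows. CTTTGTT lies on the other strand at bases 59 to 65 and is in 5.85% of windows. CTTTGAT was not found and is in 3.73% of windows. The 2 matches on the printed strand sit in a repeat: bases 198 to 228 of the window recur 37 bases further on with 1 mismatch in 31. At least 1 of the 4 is in 16.9% of windows and 3 or more matches are in 0.161%. CACGTG, the E-box of Mga and Max, is not in the Dnah8 window and is in 7.15% of all, nor is TCCCGC of E2f factors (20.0%) or GTTGCC, a core of the X-box of Rfx factors (12.5%). The window holds 16 CG pairs, and 33.0% of windows hold as many or more. Matches of short letters describe the sequence and do not show binding. For Spo11 no window was used here.

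None of the other measured axonemal dynein heavy chains passed the test (limma, adjusted p at or under 0.05), and 0 had an unadjusted p of 0.05 or less. Over all genes 0.328% were called higher, 0.833% lower, and 1330 of 11281 had such an unadjusted p. With 3 genes, 0 is near these shares. Of 15 heavy chains listed, 4 were measured, Dnah8 included. Dnah2, an inner arm chain, read 6.30, 6.13 and 6.14 on the K14ΔNLef1 arrays, against 6.13, 6.17 and 6.18 on the wild type arrays. Dnah5, an outer arm chain of airway cilia, read 5.80, 5.53 and 5.56 on the K14ΔNLef1 arrays, against 5.54, 5.60 and 5.59 on the wild type arrays. Dnah11, another outer arm chain, read 5.85, 5.72 and 5.71 on the K14ΔNLef1 arrays, against 5.52, 5.63 and 5.60 on the wild type arrays. The largest difference of the 3, that of Dnah11, was 0.18 (moderated limma SE 0.16, limma adjusted p of 0.723), and its genotypes did not overlap. Those of Dnah2 and Dnah5 overlapped, with differences of 0.03 and 0.06 (limma adjusted p of 0.963 and 0.929). All 3 lay between the median and the 95th percentile of the dim genes on all arrays.

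Of 21 Dnah2 probe sets 0 were higher on every K14ΔNLef1 array than on every wild type array, of 53 Dnah5 probe sets 4, and of 43 Dnah11 probe sets 6. Of all probe sets 5.11% were. The share was above this in Dnah11 and, by less, in Dnah5, and below it in Dnah2. These shares were not tested. Their differences ran from -0.77 to 0.68 in Dnah2, from -0.82 to 1.03 in Dnah5 and from -0.56 to 1.16 in Dnah11. None of the 3 had a probe set that met the rule for clearly higher.

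**Figure D3:**
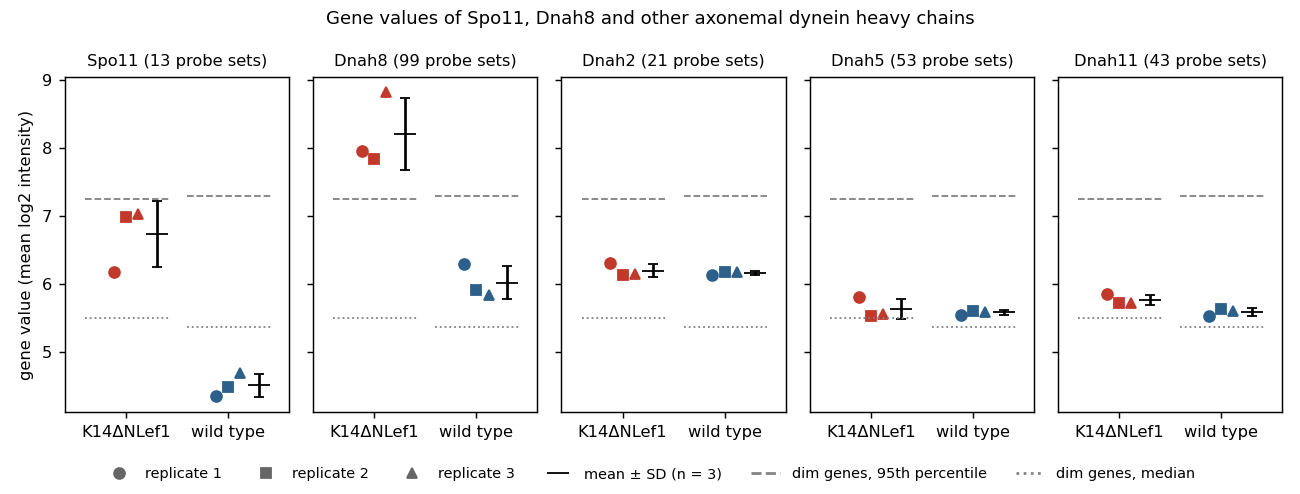
Gene value (mean log2 intensity over probe sets) of Spo11, Dnah8, Dnah2, Dnah5 and Dnah11 on each array, K14ΔNLef1 left and wild type right, with mean ± SD (n = 3) and the median and 95th percentile of dim genes averaged over the arrays of a genotype. Spo11 and Dnah8 separate by genotype, at 2.24 and 2.20 between means, and the other 3 heavy chains differ by 0.18 or less.

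**Figure D4:**
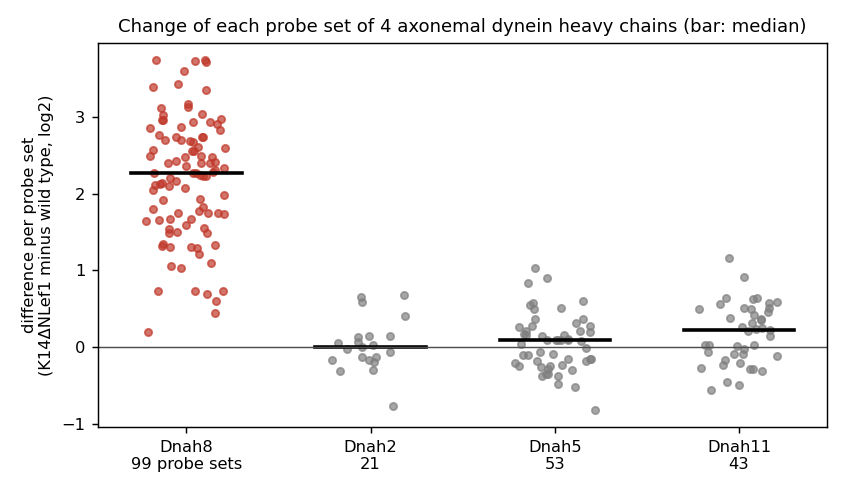
Difference between the genotypes (K14ΔNLef1 minus wild type, log2) of each probe set of the 4 measured axonemal dynein heavy chains, with the median as a bar. The Dnah8 median is 2.28 and those of Dnah2, Dnah5 and Dnah11 are 0.00, 0.09 and 0.22.

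None of the other measured genes of the axoneme passed the test. Of the 80 genes listed over 3 lists, 28 were measured beside Dnah8, and 0 were called higher and 0 lower with limma (adjusted p at or under 0.05). Over all genes 0.328% were called higher and 0.833% lower, and of the calls 28.2% were higher, or 44.3% after quantile normalization. At an unadjusted p of 0.05 or less there were 2 of the 28, against 1330 of 11281 over all genes. Their median difference was 0.03, beside -0.05 over all genes, and 16 of the 28 were higher, where 4830 of all 11281 genes were. The 2 were Cfap126, a protein of motile cilia, with 0.58 (limma adjusted p of 0.286), and Tppp3, a tubulin-binding protein, with -0.97 (limma adjusted p of 0.137). Foxj1, the factor that turns on genes of motile cilia, read 7.41, 7.31 and 7.42 on the K14ΔNLef1 arrays, against 7.40, 7.37 and 7.20 on the wild type arrays. Among the partners of axonemal dynein, the smallest p-values were those of Ccdc103, which helps attach dynein arms, with -0.31, and Ccdc39, of the ruler that spaces them, with -0.29 (limma adjusted p of 0.553 and 0.656). Dnaaf5, a dynein assembly factor, and the light chain gene Dnal4 differed by -0.16 and 0.13. Gas8, of the complex that regulates dynein, differed by -0.35 (limma adjusted p of 0.568).

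Cytoplasmic dynein, which carries cargo in all cells, was measured through 7 of 14 listed genes. None was called with limma, where 0.328% of all genes were called higher and 0.833% lower. At an unadjusted p of 0.05 or less there were 0 of the 7, against 1330 of 11281 over all genes. The median difference was -0.20, beside -0.05 over all genes, and -0.07 beside 0.06 after quantile normalization. The cytoplasmic heavy chain Dync1h1 averaged 9.16 in K14ΔNLef1 and 9.48 in wild type, and the light chain gene Dynlrb1 12.05 in K14ΔNLef1 and 12.03 in wild type. Dynlt3 had the smallest p of the list, with -0.62 (limma adjusted p of 0.440).

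None of the measured genes that act with Spo11 in meiosis passed the test. Of the 57 meiotic genes listed, 24 were measured beside Spo11, with 0 called higher and 0 lower (limma, adjusted p at or under 0.05). Over all genes 0.328% were called higher and 0.833% lower, so 0 of 24 is near that share. At an unadjusted p of 0.05 or less there were 3 of the 24, against 1330 of 11281 over all genes. The median difference of the 24 was -0.01. Of them 11 were higher, or 14 after quantile normalization, where 4830 of all 11281 genes were higher. Mei4, which works with Spo11 to form breaks, read 5.96, 6.62 and 6.14 on the K14ΔNLef1 arrays, against 6.65, 6.71 and 7.07 on the wild type arrays, a difference of -0.57 (limma adjusted p of 0.378). Dmc1, the recombinase of meiosis, averaged 5.88 in K14ΔNLef1 and 5.79 in wild type. Helq, a DNA helicase that is not limited to germ cells, had a difference of -0.63 (limma adjusted p of 0.435). Psmc3ip, a partner of the recombinases, and the mismatch repair gene Mlh3 had differences of -0.41 and 0.02.

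Among genes of the synaptonemal complex, of meiotic cohesin and of the entry into meiosis, Tex15, a germ cell gene, had the largest difference. It read 5.58, 5.62 and 6.65 on the K14ΔNLef1 arrays, against 5.06, 4.41 and 5.45 on the wild type arrays. The genotypes did not overlap, the lowest K14ΔNLef1 array lying just above the highest wild type array, and the difference of 0.98 had a limma adjusted p of 0.332. Other genes named above separated too, among them Mei4, Cfap126 and Dnah11, and the share of all genes that did is not given here. Sun1, a nuclear envelope protein that also serves other cells, had -0.65 (limma adjusted p of 0.219), and Syce2, of the central element, had -0.37. Stra8, which starts meiosis in response to retinoic acid, read 5.61, 5.37 and 5.32 on the K14ΔNLef1 arrays, against 5.21, 5.69 and 5.74 on the wild type arrays. Sycp3, of the axial element, averaged 5.82 in K14ΔNLef1 and 5.83 in wild type.

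Germ cell and spermatid markers gave 30 measured genes of 42 listed. None was called with limma, where 0.328% of all genes were called higher and 0.833% lower. An unadjusted p of 0.05 or less was found for 0 of the 30, against 1330 of 11281 over all genes. The median difference was 0.05 and the largest was 0.40, that of Pgk2, a glycolytic enzyme of sperm (limma adjusted p of 0.673). The summed intensity of these 30 genes ranged from 2555 to 2742 on the K14ΔNLef1 arrays and from 2529 to 2642 on the wild type arrays. Ddx4, the RNA helicase that marks germ cells, averaged 5.96 in K14ΔNLef1 and 5.85 in wild type, and Dazl, an RNA-binding protein of germ cells, 5.45 in K14ΔNLef1 and 5.49 in wild type. Both lay under the 95th percentile of the dim genes on all arrays. The protamine genes Prm2 and Prm1, which pack sperm DNA, differed by 0.25 and -0.12, and Hspa2, a chaperone that other cells express too, by 0.04.

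Genes that keep germ cell genes silent in other tissues, among them parts of the E2f6 and Polycomb complex, DNA methyltransferases and histone methyltransferases, were measured in 18 of 20. None was called with limma, where 0.328% of all genes were called higher and 0.833% lower. An unadjusted p of 0.05 or less was found for 1 of 18, against 1330 of 11281 over all genes. Of the 18, 4 were higher, with a median difference of -0.13. After quantile normalization 9 of 18 were higher, with a median of 0.00. The 1 with an unadjusted p of 0.05 or less was Uhrf1, which recruits the DNA methyltransferase Dnmt1 to newly copied DNA. It read 8.90, 9.16 and 9.38 on the K14ΔNLef1 arrays, against 9.86, 10.15 and 10.01 on the wild type arrays, with no overlap, and the difference of -0.86 had a limma adjusted p of 0.0967. Atf7ip, a partner of the histone methyltransferase Setdb1, differed by -0.33 (limma adjusted p of 0.523), and Max, which pairs with Mga, by -0.15. E2f6 averaged 7.14 in K14ΔNLef1 and 6.92 in wild type. The repressor list averaged 0.57 below its wild type mean on K14ΔNLef1 replicate 1 (a deviation of -0.57), and its deviations were 0.00 and 0.11 on replicates 2 and 3.

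**Figure D5:**
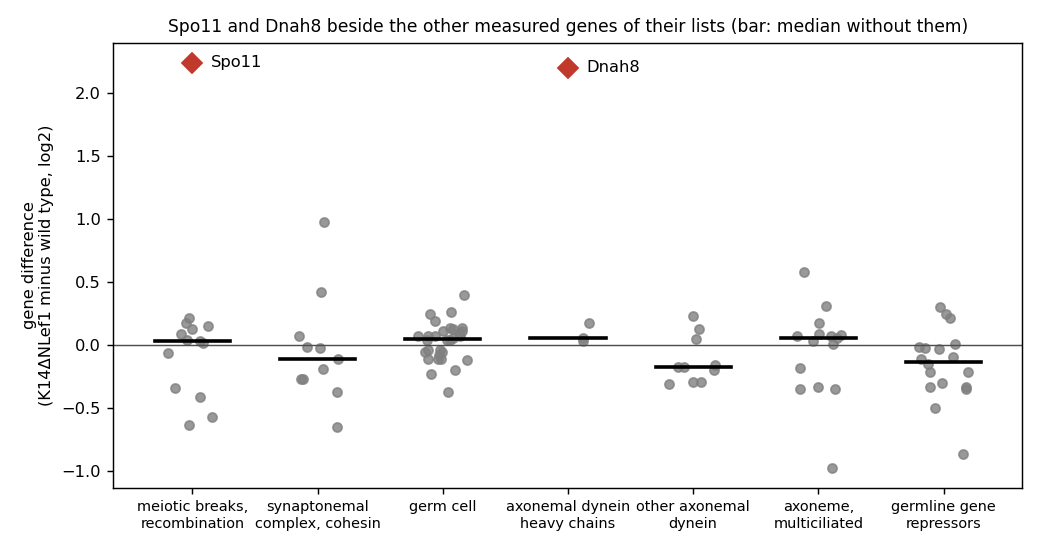
Difference between the genotypes (K14ΔNLef1 minus wild type, log2 gene value) of each measured gene of 7 lists, with the median of each list without Spo11 and Dnah8 as a bar. Spo11 at 2.24 and Dnah8 at 2.20 stand above all other points, of which the highest is Tex15 at 0.98.

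None of the measured genes beside Spo11 and Dnah8 on their chromosomes passed the test. Among the 5 protein-coding genes on each side in the order of the GRCm38.p6 gene table, 4 were measured around Spo11 on chromosome 2 and 6 around Dnah8 on chromosome 17. Of the 10, 0 were called with limma and 2 had an unadjusted p of 0.05 or less. Over all genes 0.328% were called higher and 0.833% lower, and 1330 of 11281 had an unadjusted p of 0.05 or less. Bmp7, a growth factor gene next to Spo11, read 8.30, 8.64 and 8.73 on the K14ΔNLef1 arrays, against 8.20, 7.98 and 8.05 on the wild type arrays. The genotypes did not overlap, as in other genes named above, and the difference of 0.48 had a limma adjusted p of 0.367. Rbm38, an RNA-binding protein gene and the nearest measured on the other side, differed by 0.03 (limma adjusted p of 0.965).

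Glo1, the glyoxalase gene next to Dnah8 and read by 1 probe set, had 11.44, 10.96 and 11.54 on the K14ΔNLef1 arrays, against 11.09, 11.17 and 11.24 on the wild type arrays, so the genotypes overlapped. Glp1r, the incretin receptor gene on its other side, read 6.46, 5.57 and 5.94 on the K14ΔNLef1 arrays, against 5.93, 5.84 and 5.80 on the wild type arrays. The other with an unadjusted p of 0.05 or less was Abcg1, a lipid exporter, with -0.40 (limma adjusted p of 0.396).

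The genes whose values over the 6 arrays were most like those of Spo11 were Gng11, Cdo1, Vldlr, Cald1 and Krt2. Likeness is the root mean square distance between the log2 gene values of the 6 arrays, each gene centred on its own mean, so the genotype difference that chose Spo11 is part of it. Gng11, a G protein subunit gene read by 1 probe set, lay at 0.116. It read 6.71, 7.40 and 7.39 on the K14ΔNLef1 arrays, against 5.01, 5.04 and 5.03 on the wild type arrays, with K14ΔNLef1 replicate 1 the lowest of its genotype as in Spo11. Cdo1, a cysteine dioxygenase, lay at 0.172, the lipoprotein receptor gene Vldlr at 0.200, the caldesmon gene Cald1 at 0.211 and the suprabasal keratin gene Krt2 at 0.259. The nearest to Dnah8 were the protease inhibitor gene Serpine2 at 0.297, Camk2n1, an inhibitor of a calmodulin-dependent kinase, at 0.299, the membrane glycoprotein gene Gpm6b at 0.303, Cdo1 at 0.338 and Gng11 at 0.339. Spo11 and Dnah8 lay at 0.387 from each other, so that each was among the 12 genes nearest to the other.

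Some markers of other cells also differed between arrays. Counts of higher markers stand beside 4830 of 11281 over all genes, and the scaling of the arrays moves some of them. In such samples more cells of a type and more RNA per cell cannot be told apart. T cell markers were higher in 6 of 7 measured genes, with a summed intensity of 2325 to 7526 on the K14ΔNLef1 arrays and 2129 to 3562 on the wild type arrays. Their mean deviation from wild type was -0.25, 1.45 and 0.88 on K14ΔNLef1 replicates 1, 2 and 3. Cd2, Cd3e and Cd3g, of the T cell surface, differed by 0.84, 0.66 and 0.84 (limma adjusted p of 0.388, 0.492 and 0.523). Langerhans cell markers were higher in 8 of 9, at 1743 to 5128 on the K14ΔNLef1 arrays and 1751 to 2511 on the wild type arrays, with deviations of 0.03, 1.38 and 0.69. The antigen presentation gene H2-Eb1 differed by 1.35, the receptor subunit gene Fcer1g by 0.74 and Epcam, an adhesion molecule, by -0.07 (limma adjusted p of 0.401, 0.261 and 0.941). Both lists were lowest among the K14ΔNLef1 arrays on replicate 1, the array with the lowest median intensity, and highest on replicate 2. On replicates 1, 2 and 3 Spo11 read 6.18, 6.99 and 7.03, and Dnah8 7.96, 7.84 and 8.82.

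Macrophage and neutrophil markers were higher in 8 of 9, at 642 to 1390 on the K14ΔNLef1 arrays and 513 to 571 on the wild type arrays. S100a8 and S100a9, which stressed keratinocytes express too, had the largest differences, 1.97 and 1.36 (limma adjusted p of 0.473 and 0.568). On K14ΔNLef1 replicates 1, 2 and 3 S100a8 read 5.44, 5.06 and 9.14, and S100a9 6.29, 5.03 and 8.44. Cd68, a lysosomal protein of macrophages, read 7.19, 7.56 and 6.95 on the K14ΔNLef1 arrays, against 7.13, 6.85 and 6.94 on the wild type arrays. These 3 were the genes of the list above the 95th percentile of the dim genes on any array, Cd68 on K14ΔNLef1 replicate 2 and the other two on replicate 3. Csf3r, a receptor of neutrophils, differed by -0.06.

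Fibroblast markers were higher in 8 of 9, at 1296 to 1931 on the K14ΔNLef1 arrays and 927 to 1310 on the wild type arrays. Thy1 is also in the T cell list, and without it the sums were 793 to 997 on the K14ΔNLef1 arrays and 673 to 789 on the wild type arrays. Fbln1, of the extracellular matrix, differed by 1.02 and Lum, a matrix proteoglycan read by 1 probe set, by -1.29 (limma adjusted p of 0.147 and 0.151), and Thy1 and the collagen gene Col1a1 by 0.67 and 0.14. Melanocyte markers were higher in 7 of 9, with the pigment enzymes Tyr and Tyrp1 at 0.60 and 0.53 (limma adjusted p of 0.229 and 0.302), the transporter gene Slc45a2 at 0.12 and the transcription factor gene Mitf at -0.15. Vessel and muscle markers were higher in 7 of 10, and in 10 of 10 after quantile normalization. Among them were the actin gene Acta2 at 1.04 (limma adjusted p of 0.314), the cadherin gene Cdh5 at 0.31, Vwf, of vessel walls, at 0.18 and the myosin gene Myh11 at 0.15.

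Merkel and Schwann cell markers were higher in 2 of 6, and in 5 of 6 after quantile normalization, with the keratin genes Krt18 and Krt20 at 0.14 and -0.07 and the myelin gene Mbp at 0.00. No gene of these 7 lists was called with limma, where 0.328% of all genes were called higher and 0.833% lower. In the 7 lists 9 genes had an unadjusted p of 0.05 or less, where 1330 of 11281 over all genes did. The part of these cell types in the values of Spo11 and Dnah8 was not tested. Of the 16 keratinocyte markers 3 were higher, where 4830 of 11281 over all genes were. With limma 0 of the 16 were called. An unadjusted p of 0.05 or less was found for 4, against 1330 of 11281 over all genes. Cdh3, a cadherin of basal cells, differed by 0.82, the desmosome gene Dsc3 by -0.66, Krt10, of suprabasal cells, by -0.60 and Krt14 by 0.03 (limma adjusted p of 0.170, 0.301, 0.335 and 0.964).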

How the data were processed

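RNA of 6 samples was amplified and hybridised to mouse exon arrays, per the labels' protocols. The deposited table holds a linear intensity for each of 114330 probe sets and array. Per the submitters' processing notes, Affymetrix Power Tools, RMA and mm9 were used; versions and filters are not given in the sources used here. Taking log2 gave numbers of 5 decimals (to within 7.2e-10), so log2 was used throughout. Platform symbols named 109751 probe sets with 1 gene; 834 had several and 3745 none. Of these symbols 1226 were updated through the GRCm38.p6 gene table, in which 11244 of 11281 genes were found.

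All genes were fitted with limma 3.58.1 in R 4.3.3 (lmFit, eBayes, two-sided), Benjamini-Hochberg over all genes, threshold 0.05, no filter, and the fit was tested on simulated data. Members, lists, motifs and alternatives were chosen with earlier results of these data known. Of each list, genes were named that passed, otherwise the 2 with the smallest p and the 2 with the highest mean; further members were named after their values were seen, for their role. The p-values set the difference between the genotypes against the spread between these samples, with each gene's variance moderated over all genes. The alternatives took a gene's median probe set or its brighter probe sets, 2 scalings of the arrays, a filter on dim genes, eBayes with trend and robust settings, a replicate block and each array left out. Python 3.11.15, pandas 2.3.3 and matplotlib 3.10.9 were used.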

Additional observations from a re-analysis of the deposited data

How the results depend on the processing

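The Spo11 difference was 2.68 with the median of its probe sets in place of the mean, and 2.09 to 2.51 with 1 array left out. The Dnah8 difference was 1.89 to 2.38 with 1 array left out, lowest without K14ΔNLef1 replicate 3. Neither left the main value by more than the spread between replicates under brighter probe sets, both scalings or, chosen after seeing the data, quantile normalization without K14ΔNLef1 replicate 1. The labels name no pairs of samples. Deviations of same-numbered samples correlated at -0.163, -0.173 and 0.036, and those of differently numbered samples at up to 0.199. With 3 arrays per genotype these values cannot show whether samples were paired. The replicate block left the differences at 2.24 and 2.20. Of all genes 131 were called, against 75 with the replicate block, 236 with arrays shifted to the same median, 201 with quantile normalization, 238 with quantile normalization and without K14ΔNLef1 replicate 1, and 28 to 239 with 1 array left out, highest without K14ΔNLef1 replicate 1 and lowest without wild type replicate 3. The median difference of all genes was -0.05, and 0.05 and 0.06 under the 2 scalings, which moves values near 0 across it. Counts of clearly higher probe sets moved with the dim level: 0 and 2 for Spo11 and 9 and 32 for Dnah8 under the 99th percentile and the median of all probe sets. With 1 array left out they were 1 to 1 for Spo11 and 18 to 30 for Dnah8. In the meiosis, axoneme, germ cell and repressor lists and among the neighbours, 0 genes were called with limma under each of the 14 alternatives run. Of the 57 meiotic and 80 axoneme genes listed, 24 and 28 were measured beside Spo11 and Dnah8, which limits what the lists can show.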
